A study of Mus musculus with 4 samples.

Results

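Antioxidant enzymes were followed by the compartment in which their proteins work: 10 of the 32285 genes in the deposited tables. They were chosen by name, though with earlier results of these data known. They are the cytosolic enzymes Sod1, Gpx1 and Prdx6, the peroxisomal enzyme Cat, the mitochondrial enzymes Sod2, Prdx3, Prdx5 and Txn2, and the secreted enzymes Sod3 and Gpx3. The data are 4 libraries of left ventricle, 1 per condition, from wild-type male C57BL/6J mice without any introduced allele. Young mice were 3 to 5 months of age and aged mice 24 to 26 months. In the I/R groups the left anterior descending coronary artery was closed for 45 min (ischemia) and reopened for 24 h (reperfusion), and the other group of each age was sham. The sample titles and the paper call the latter sham, while another label calls the tissue healthy and unaltered; likewise the labels name nuclear RNA where the paper describes single-cell suspensions. The number of mice pooled in a library is not given in the sources used here.

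Reactive oxygen species are cleared in steps, and each compartment has its own set of enzymes. Superoxide dismutases turn superoxide into hydrogen peroxide: Sod1 does so with copper and zinc in the cytosol, Sod2 with manganese in the mitochondrial matrix, and Sod3 with copper and zinc outside the cell. Hydrogen peroxide is then removed by catalase (Cat), by glutathione peroxidases (Gpx1 inside the cell, Gpx3 in extracellular fluid and plasma) and by peroxiredoxins, of which Prdx3 and Prdx5 draw their electrons in mitochondria from thioredoxin 2 (Txn2). Sod1, Gpx1 and Prdx5 proteins are also found outside the compartment under which they are listed here. In heart muscle, which is rich in mitochondria, the return of oxygen after ischemia is a known source of such species.

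The sequence just before the gene start is shown for 3 genes. They are the enzyme whose level by total counts differed most among the libraries (Gpx3), the peroxisomal enzyme (Cat), and the gene with an antioxidant response element core (Sod1). Each line gives 250 bases ending at the start annotated by RefSeq, 5′ to 3′ on the strand of the gene, from RefSeq on GRCm38.p6, at chr11:54902604-54902853 (plus strand) for Gpx3, chr2:103485154-103485403 (minus strand) for Cat and chr16:90220512-90220761 (plus strand) for Sod1. The RefSeq start of Gpx3 lies downstream of the GENCODE start from which its gene position below is taken, so that its window falls inside that gene span. Capitals mark the letters of 4 motifs on either strand.
Gpx3: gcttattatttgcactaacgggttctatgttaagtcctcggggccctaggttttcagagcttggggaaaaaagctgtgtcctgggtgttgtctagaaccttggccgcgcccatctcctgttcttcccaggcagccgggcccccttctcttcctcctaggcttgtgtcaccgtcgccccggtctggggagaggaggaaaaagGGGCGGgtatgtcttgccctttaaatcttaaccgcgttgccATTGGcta
Cat: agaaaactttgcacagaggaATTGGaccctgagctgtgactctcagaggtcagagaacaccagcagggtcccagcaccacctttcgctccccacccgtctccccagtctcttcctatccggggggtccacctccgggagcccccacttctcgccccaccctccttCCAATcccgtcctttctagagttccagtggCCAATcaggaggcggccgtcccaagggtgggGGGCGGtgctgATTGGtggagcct
Sod1: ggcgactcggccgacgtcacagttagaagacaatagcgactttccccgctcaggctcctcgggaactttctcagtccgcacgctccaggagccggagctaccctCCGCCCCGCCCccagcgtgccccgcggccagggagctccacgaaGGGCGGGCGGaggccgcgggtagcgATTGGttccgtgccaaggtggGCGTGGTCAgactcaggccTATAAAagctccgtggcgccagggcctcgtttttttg
The motifs were the antioxidant response element core TGACNNNGC, the GC box GGGCGG, the CCAAT box CCAAT and the TATA box TATAAA, counted also where they overlap. RefSeq windows were matched for 8 of the 10 genes, not for Sod3 and Prdx6. The response element core was present in 1 of the 8, Sod1, where it stands on the opposite strand, against 10.2% of 32851 promoter windows of the same length. The GC box was present in 7 of the 8 against 32.7% of all windows, the CCAAT box in 5 against 33.8%, and the TATA box in 2, Sod1 and Prdx3, against 12.4%. These are matches of letters and not sites of binding.

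Values are counts of unique molecular identifiers (UMIs, tags that mark single captured RNA molecules) summed over all barcodes of a library and given per 1000000 UMIs of that library (CPM). With 1 library per condition no statistical test was possible, and neither p-values nor SDs are given. Where 4 values are listed for the libraries, sham precedes I/R and young precedes aged. The 95% intervals, exact Poisson for a level and exact binomial for a share or a ratio of libraries, cover counting error only and not differences between mice. Such an interval reached at most 9.83% to either side for Sod3, which had 437 to 1172 UMIs per library, and at most 5.33% for the other 9 enzymes. Sums over tissue cannot tell fewer cells of a type from less RNA per cell.

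The libraries were unequal, and this bears on every ratio. Total UMIs ranged from 25836175 in young sham to 66767829 in aged I/R, the median per barcode from 244 to 675, and the share of barcodes with at least 200 detected genes from 28.4% to 98.8%. A library held 91124 to 102883 barcodes, and all were summed without a call of which held cells. The part of RNA from outside cells in the sums was not tested. Malat1 took 7.34%, 2.22%, 2.88% and 4.33% of the UMIs in the 4 libraries, and Gm42418 11.5%, 19.4%, 14.0% and 13.8%. With these RNAs and the mitochondrial-encoded genes left out of the totals, log2 ratios shifted by 0.15 in young I/R over young sham. The shifts were −0.09 in aged I/R over aged sham, 0.08 in aged over young sham and −0.16 in aged over young I/R. How far differences in such RNAs enter the enzyme values otherwise was not tested. Between 7.44% and 7.92% of the barcodes of a library were found in another library as well, and ratios were computed with and without them. All 10 genes of a cardiomyocyte marker list had at least 20 UMIs in every library. The median log2 ratio over the 13424 genes with at least 20 UMIs in each of the libraries was −0.48 for young I/R over young sham, 0.08 for aged I/R over aged sham, −0.14 for aged over young sham and 0.42 for aged over young I/R. Ratios scaled to this median (gene-wise scaling) are therefore given beside those by total UMIs where they differ in what they show. Scaling by the summed UMIs of 76 cytosolic ribosomal protein genes was added after the data had been seen.

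**Figure D1:**
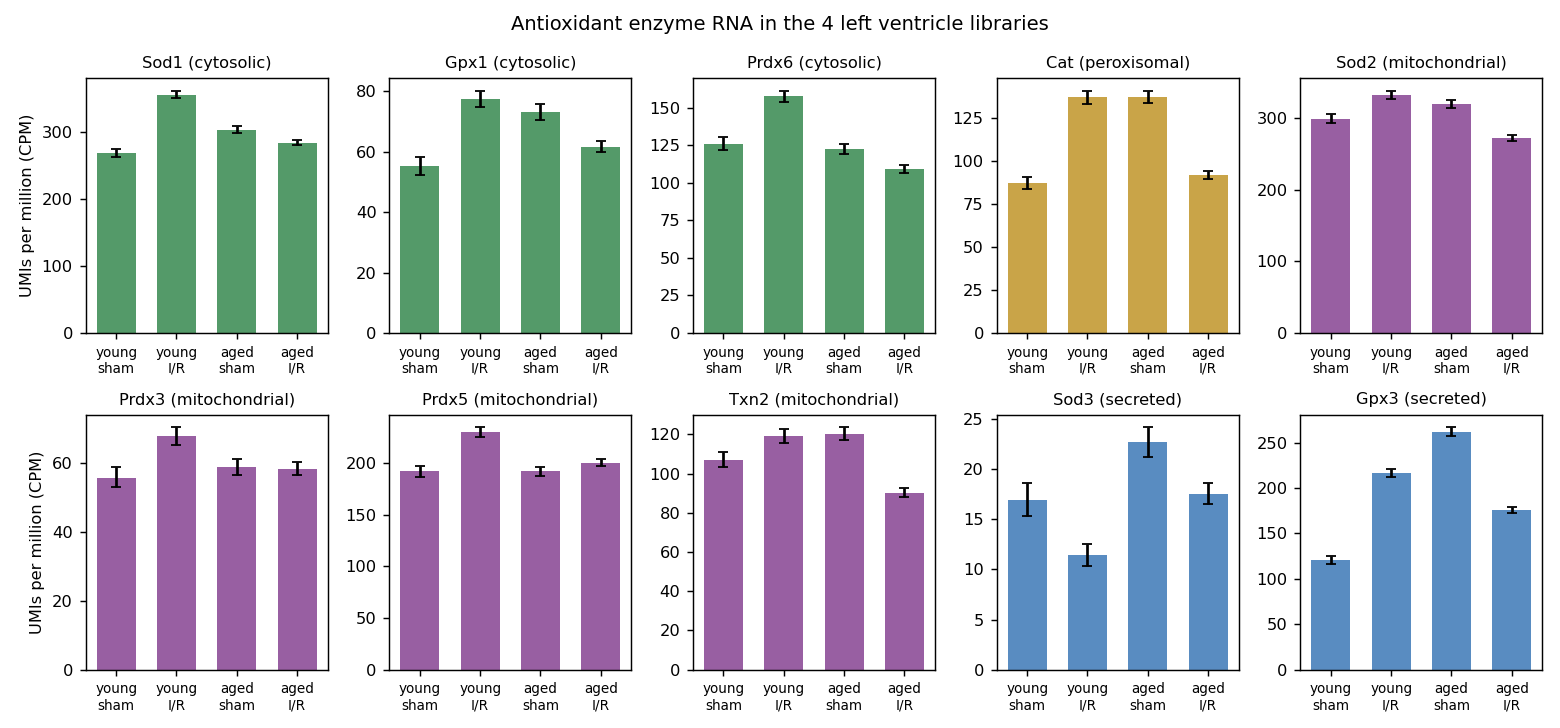
Level of each of the 10 enzymes in CPM in the 4 libraries, as bars from 0 with 95% counting intervals, 1 panel per enzyme with its own axis, coloured by compartment. Gpx3 ranged from 120 CPM in young sham to 262 in aged sham, Sod3 was lowest in young I/R at 11.4 CPM, and Prdx5 stayed between 192 and 230 CPM.

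Of the superoxide dismutases, the cytosolic and the mitochondrial gene were by total UMIs both highest in young I/R, and the secreted gene was lowest there. Sod1 (chr16:90220754-90226329, plus strand) measured 269 CPM under sham and 356 CPM after I/R in young ventricle, and 304 CPM under sham and 285 CPM after I/R in aged ventricle. Sod2 (chr17:13006846-13040063, plus strand) measured 299 CPM, 333, 320 and 272 CPM in the 4 libraries. For both genes no pair of neighbours in the order of the levels overlapped in counting error, and young sham was the lowest library for Sod1 and aged I/R for Sod2. This order depends on the scaling. By ribosomal protein scaling Sod2 was at −0.29 in young I/R and −0.46 in aged sham, each over young sham. Sod1 was then at −0.035 and −0.38. Sod1 shares part of its position with Scaf4 on the opposite strand, and how strand entered the counting is not stated.

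Sod3 (chr5:52363791-52371418, plus strand) measured 16.9 CPM (15.4 to 18.6) under sham and 11.4 CPM (10.4 to 12.5) after I/R in young ventricle, and 22.7 CPM (21.3 to 24.2) under sham and 17.6 CPM (16.6 to 18.6) after I/R in aged ventricle. It was lower after I/R at both ages, with log2 ratios of −0.57 (−0.76 to −0.37) in young and −0.37 (−0.49 to −0.24) in aged ventricle, and aged I/R and young sham could not be separated. The size depended on the scaling: gene-wise the young ratio was −0.09 and the aged one −0.45, and by ribosomal protein RNA they were −1.01 and −0.11. The gene-wise young ratio (−0.28 to 0.10) and the aged ratio by ribosomal protein RNA (−0.23 to 0.02) were within counting error. The ratio of Sod3 to Sod1 UMIs within a library needs no scaling: it was 0.0629 under sham and 0.0320 (0.0291 to 0.0352) after I/R in young ventricle, against 0.0747 under sham and 0.0617 (0.0581 to 0.0654) after I/R in aged ventricle.

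Markers of several cell types had ratios of the same sign as Sod3 in young I/R over sham and in aged over young I/R. The 10 genes of 1 fibroblast list summed to 761.6, 551, 907 and 865 CPM in the 4 libraries, and a further 10 to 503, 316, 565 and 459 CPM. No marker of either list was at 0. In young I/R 9 of 10 markers of each list were lower than in young sham, and 9 of 10 of each were higher in aged than in young I/R. Of 10 genes in each of the macrophage lists, 10 and 3 were below young sham in young I/R, and 10 and 8 were higher in aged than in young I/R. Of 10 genes in each of the mural lists, 10 and 9 were lower and 9 and 9 higher in these comparisons. For the endothelial lists, of 10 genes each, 9 and 6 were lower and 8 and 5 higher. The second endothelial sum was at 0.14 in young I/R over sham. Of 10 genes in each cardiomyocyte list, 6 and 4 were lower and 5 and 3 higher. The cardiomyocyte sums were at −0.27 and 0.17 in young I/R over sham. In aged over young I/R they were at 0.43 and −0.37. Over all genes the median was −0.51 and 0.47 in these comparisons. By 1.5-fold or more 46.1% of all genes were lower in the former and 42.7% higher in the latter. Scaled gene-wise, the log2 ratios of the fibroblast sums in young I/R over sham were 0.01 and −0.19. Those of the macrophage sums were then −0.12 and 0.37, and those of the mural sums 0.13 and 0.17. In aged I/R over sham, by total UMIs, the fibroblast sums were at −0.07 and −0.30. There the macrophage sums were at −0.22 and 0.14 and the mural sums at −0.09 and 0.29. The part of any of these cells in the Sod3 values was not tested.

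Catalase, which breaks down hydrogen peroxide in peroxisomes, differed in opposite directions after I/R at the 2 ages. Cat (chr2:103453849-103485160, minus strand) measured 87.3 CPM (83.8 to 91.0) under sham and 137 CPM (134 to 141) after I/R in young ventricle, and 138 CPM (134 to 141) under sham and 92.0 CPM (89.7 to 94.3) after I/R in aged ventricle. Thus young I/R and aged sham were high and did not differ beyond counting error, and the other libraries were low. I/R over sham gave a log2 ratio of 0.65 (0.58 to 0.72) in young and −0.58 (−0.63 to −0.53) in aged ventricle, and both kept their sign under all 7 ways of summing and scaling. Markers of red blood cells, which are rich in catalase, summed over a list of 5 genes to 2567, 1957, 1691 and 1025 CPM in the 4 libraries, and their part in the Cat values was not tested.

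By total UMIs the glutathione peroxidases also differed in opposite directions after I/R at the 2 ages. The secreted gene differed by more than the intracellular one. Gpx3 (chr11:54902453-54910377, plus strand), the plasma form, measured 120 CPM (116 to 125) under sham and 216 CPM (212 to 221) after I/R in young ventricle, and 262 CPM (257 to 267) under sham and 176 CPM (173 to 179) after I/R in aged ventricle. By total UMIs all 4 libraries were separated in counting error, and the 2.18-fold range was the widest of the 10 enzymes. With gene-wise scaling Gpx3 was at 1.32 in young I/R and 1.26 in aged sham, each over young sham. For I/R over sham its log2 ratio by total UMIs was 0.85 (0.79 to 0.91) in young and −0.57 (−0.61 to −0.54) in aged ventricle.

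Gpx1 (chr9:108338903-108340343, plus strand), which reduces hydrogen peroxide inside the cell, measured 55.2, 77.4, 73.0 and 61.6 CPM in the 4 libraries. Its ratios of I/R over sham were 0.49 (0.40 to 0.58) in young and −0.24 (−0.31 to −0.18) in aged ventricle. By ribosomal protein scaling they were 0.05 (−0.04 to 0.14) and 0.018 (−0.05 to 0.09), both within counting error. Within a library there were 2.18 (2.05 to 2.32) UMIs of Gpx3 per UMI of Gpx1 in young sham and 2.79 (2.68 to 2.91) after I/R, against 3.59 (3.44 to 3.73) in aged sham and 2.86 (2.76 to 2.96) after I/R. The ratio was lowest in young sham and highest in aged sham, and young and aged I/R overlapped.

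By total UMIs the mitochondrial peroxiredoxins had the narrowest ranges of all 10 enzymes, 1.197-fold for Prdx5 and 1.21-fold for Prdx3. This ranking depends on the scaling. By ribosomal protein scaling Prdx5 was at −0.18 in young I/R over sham and −0.55 in aged over young sham, beside 0.05 and −0.15 for Gpx1. Prdx5 (chr19:6906697-6910106, minus strand) measured 192, 230, 192 and 200 CPM, and Prdx3 (chr19:60864051-60874556, minus strand) 55.7, 67.6, 58.6 and 58.2 CPM in the 4 libraries. Both mitochondrial peroxiredoxins were highest in young I/R. The sham libraries of Prdx5 could not be separated, nor could the 3 lower libraries of Prdx3. Prdx5 overlaps Trmt112 on the opposite strand.

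Per UMI of Prdx5 there were 0.290, 0.294, 0.305 and 0.291 UMIs of Prdx3 in those libraries, and all the intervals of this ratio overlapped. Txn2 (chr15:77915047-77929006, minus strand), their electron donor, measured 107, 119, 120 and 90.3 CPM in the 4 libraries. It was lowest in aged I/R, where there were 1.55 (1.49 to 1.61) UMIs of Txn2 per UMI of Prdx3 against 2.05 (1.95 to 2.15) in aged sham. In young ventricle this ratio was 1.92 (1.80 to 2.05) in sham and 1.76 (1.68 to 1.85) after I/R.

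Prdx6 (chr1:161240112-161251219, minus strand), a cytosolic peroxiredoxin that uses glutathione, measured 126, 157, 122 and 109 CPM in the 4 libraries. By total UMIs young I/R was highest and aged I/R lowest, and the sham libraries did not differ beyond counting error. Its near copy Prdx6b was at 0 or 1 UMI in every library. Against the mitochondrial Prdx5, the cytosolic gene was lowest in aged I/R, where there were 1.83 (1.78 to 1.89) UMIs of Prdx5 per UMI of Prdx6 against 1.46 (1.41 to 1.51) in young I/R.

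Between genes, levels were also taken per kb of the principal transcript. The limit is that a 3′ kit reads mainly transcript ends, and a UMI marks 1 captured molecule whatever its length. By UMIs there were 1.11, 0.93, 1.05 and 0.96 of Sod2 per UMI of Sod1 in the 4 libraries. Per kb Sod1 was the highest enzyme in every library, at 419 to 556 CPM per kb. Prdx5 and Gpx3 followed, at 152 to 182 and 75.5 to 164 CPM per kb, and changed places between libraries, with Gpx3 above Prdx5 in aged sham. Sod3 was the lowest in every library, at 3.05 to 6.07 CPM per kb.

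Summed by compartment, RNA for mitochondrial enzymes took the largest share of the UMIs of the 10 enzymes in every library, and more in young sham than in the others. Its share was 49.2% (48.7 to 49.8) under sham and 43.9% (43.6 to 44.3) after I/R in young ventricle, and 42.8% (42.5 to 43.2) under sham and 45.6% (45.3 to 45.9) after I/R in aged ventricle. The secreted share was lowest in young sham and highest in aged sham, at 10.3% (10.0 to 10.7), 13.3% (13.1 to 13.6), 17.7% (17.4 to 17.9) and 14.2% (14.0 to 14.4). The cytosolic share was lowest in aged sham, at 31.0%, and 33.4% to 34.7% elsewhere. The peroxisomal share, which is Cat alone, was 6.57%, 8.04%, 8.54% and 6.75%. The set holds 4 mitochondrial, 3 cytosolic and 2 secreted genes, so the order of the shares describes this set and not the tissue. Other peroxiredoxins, such as Prdx1 and Prdx2 at 143 and 187 CPM in young sham, are not counted in it.

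**Figure D2:**
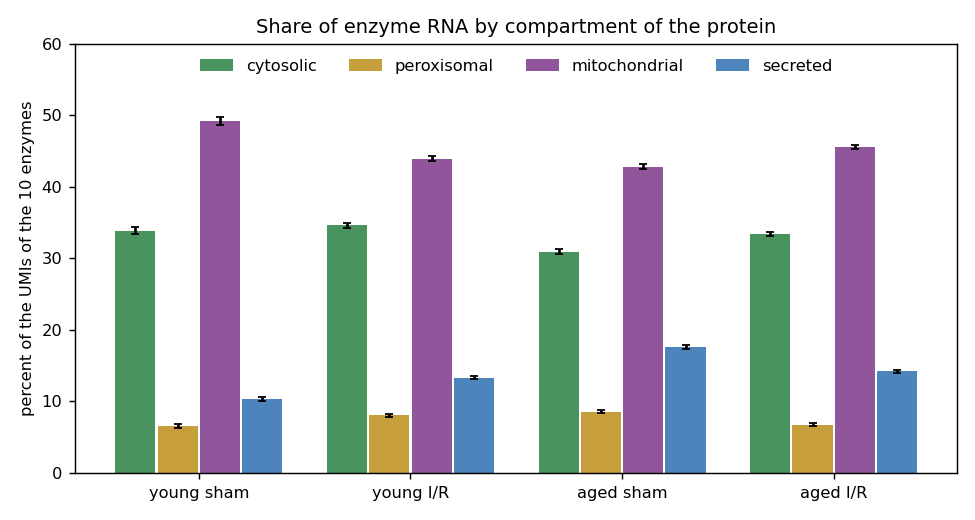
Percent of the UMIs of the 10 enzymes that fell to each compartment in the 4 libraries, as bars from 0 with 95% binomial intervals. The mitochondrial bar is tallest in young sham at 49.2%, and the secreted bar in aged sham at 17.7%.

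Shares within a library do not depend on how libraries are scaled, yet they turn on a few genes. Without Gpx3, Sod1 and Sod2, the most abundant gene of each compartment with several, the secreted share was Sod3 alone and measured 2.64%, 1.43%, 3.12% and 2.79% in the 4 libraries. The secreted share thus followed Gpx3 and not Sod3 in young I/R. Without these genes the mitochondrial share was 55.4%, 52.1%, 51.0% and 55.4%, so that young sham no longer stood above aged I/R. Per kb of transcript the cytosolic enzymes held the largest share, at 52.3% to 55.9%, and the mitochondrial ones 28.1% to 32.4%, with young sham again the highest for mitochondria. The cytosolic lead thus arose from the division by length, which UMI counts of a 3′ kit do not call for. The higher secreted share in aged sham than in young sham was present by UMIs and per kb.

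The first comparison asked how enzyme RNA in young ventricle differed after I/R. By total UMIs 9 of the 10 enzymes were higher in young I/R and Sod3 was lower, whereas by ribosomal protein scaling only Gpx1, Cat and Gpx3 were higher. By the latter scaling Gpx1, at 0.05 (−0.04 to 0.14), and Sod1, at −0.035 (−0.076 to 0.007), were within counting error. The log2 ratios were 0.32 (0.26 to 0.38) for Prdx6, 0.41 (0.36 to 0.45) for Sod1, 0.15 (0.11 to 0.19) for Sod2, 0.28 (0.19 to 0.37) for Prdx3, 0.26 (0.21 to 0.31) for Prdx5 and 0.15 (0.09 to 0.22) for Txn2, beside those above. Summed by total UMIs, the cytosolic enzymes were at 0.39 (0.36 to 0.43) and the mitochondrial ones at 0.20 (0.17 to 0.22). The secreted sum was at 0.73 (0.67 to 0.79) with Gpx3 and −0.57 without it. The mitochondrial sum thus lay below the cytosolic one, an order that no scaling of libraries changes. Ribosomal protein RNA was at 0.44, so that by ribosomal protein scaling neither of these sums was above sham.

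The limit of size was a ratio of 1.5-fold or more, read among genes that had 20 or more UMIs in the pair of libraries, and all 10 enzymes had enough UMIs in every comparison. In young I/R 2 enzymes were higher by this limit, Cat and Gpx3, where 6.36% of all genes were, and 0 were lower, where 46.1% of all genes were. The median of the enzymes was 0.30, beside −0.51 over all genes. With gene-wise scaling 9 enzymes passed the limit upwards, beside 18.8% of all genes, and 0 downwards, beside 24.6%.

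The second comparison asked the same of aged ventricle. By total UMIs 9 of 10 enzymes were lower after I/R, and Prdx5 was higher by 0.06 (0.02 to 0.10), whereas ribosomal protein scaling left 4 lower (Cat, Txn2, Sod3 and Gpx3) and 6 higher. Of these, Gpx1, at 0.018 (−0.05 to 0.09), Sod2, at 0.029 (−0.004 to 0.061), and Sod3, at −0.11 (−0.23 to 0.02), were within counting error by that scaling. Log2 ratios were −0.09 (−0.13 to −0.06) for Sod1, −0.16 (−0.22 to −0.11) for Prdx6, −0.23 (−0.27 to −0.20) for Sod2 and −0.41 (−0.47 to −0.36) for Txn2. Prdx3 was at −0.01 (−0.08 to 0.07), within counting error. By total UMIs the cytosolic sum was at −0.13 (−0.16 to −0.11), the mitochondrial sum at −0.15 (−0.18 to −0.13) and the secreted sum at −0.56 (−0.59 to −0.52). Ribosomal protein RNA was at −0.26, so that by that scaling the cytosolic and mitochondrial sums were above sham and the secreted sum below. By total UMIs no enzyme reached 1.5-fold: 0 were higher, beside 16.7% of all genes, and 0 lower, beside 9.71%. The median was −0.24 against 0.09 over all genes. Cat and Gpx3 lay just inside the limit and passed it downwards with gene-wise scaling, at −0.66 and −0.65, beside 12.4% of all genes; 0 passed it upwards, beside 13.7%.

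**Figure D3:**
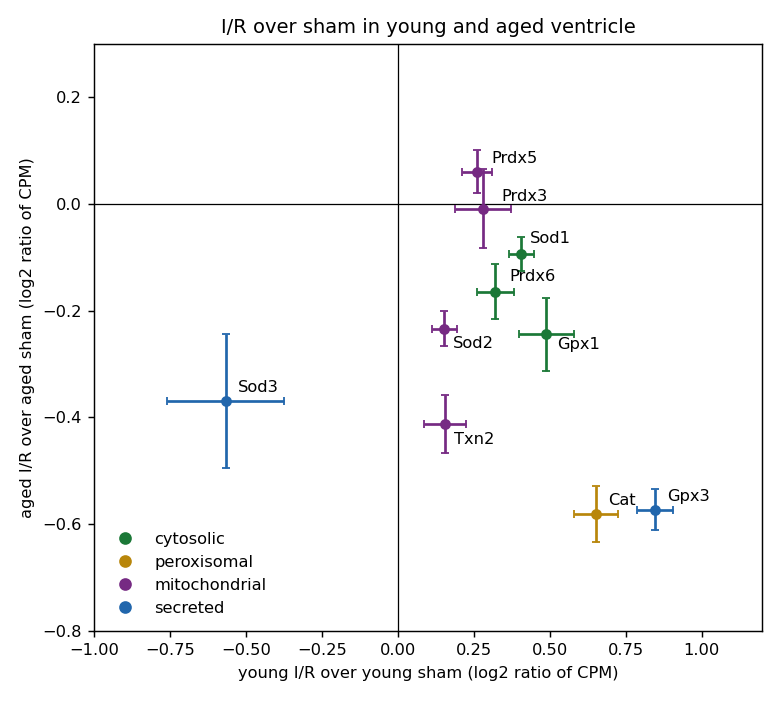
Log2 ratio of CPM of I/R over sham in young (x axis) and aged ventricle (y axis) for the 10 enzymes, coloured by compartment, with 95% counting intervals. Cat (0.65, −0.58) and Gpx3 (0.85, −0.57) lie furthest to the lower right, and Sod3 (−0.57, −0.37) is the only point left of 0.

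The difference between both responses, aged minus young on the log2 scale, was largest for Gpx3 at −1.42 (−1.49 to −1.35) and Cat at −1.23 (−1.32 to −1.15). Gpx1 followed at −0.73 (−0.85 to −0.62), Txn2 at −0.57 (−0.65 to −0.48), Sod1 at −0.50 (−0.55 to −0.45) and Prdx6 at −0.48 (−0.56 to −0.40). Sod2 at −0.39 (−0.44 to −0.33), Prdx3 at −0.29 (−0.41 to −0.17) and Prdx5 at −0.20 (−0.26 to −0.14) were closer to 0. Sod3 was at 0.20 (−0.03 to 0.42), within counting error, but at −0.36 gene-wise and 0.90 by ribosomal protein scaling, so that its direction is not settled. By ribosomal protein scaling Gpx3 stayed at −0.72, Cat at −0.53 and Gpx1 at −0.03 (−0.14 to 0.08), and the other 7 were above 0, so the direction for those depends on the scaling.

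Between sham libraries, aged over young, Gpx3 was higher by 1.12 (1.06 to 1.18) on the log2 scale and Cat by 0.66 (0.59 to 0.73). Sod3 was at 0.42 (0.26 to 0.59), Gpx1 at 0.40 (0.31 to 0.50), Sod1 at 0.18 (0.13 to 0.22), Txn2 at 0.17 (0.10 to 0.23) and Sod2 at 0.09 (0.05 to 0.14). Prdx3 at 0.07 (−0.02 to 0.17), Prdx5 at 0.00 (−0.05 to 0.05) and Prdx6 at −0.04 (−0.11 to 0.02) did not differ beyond counting error by total UMIs, but were at −0.48, −0.55 and −0.598 by ribosomal protein scaling. By total UMIs 9 of 10 were thus above 0, whereas by ribosomal protein scaling only Cat and Gpx3 were. At 1.5-fold 2 were higher, again Cat and Gpx3, beside 8.99% of all genes, and 0 lower, beside 19.8%, with a median of 0.17 against −0.14 over all genes. Gene-wise the same counts stood beside 13% and 13.7% of all genes. This comparison shares the young sham library with the first one, so that a low value there enters both.

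After I/R, aged over young, 9 of the 10 enzymes were lower and Sod3 was higher, and each kept this sign under all 7 ways of summing and scaling. The log2 ratios were −0.58 (−0.63 to −0.52) for Cat, −0.53 (−0.58 to −0.48) for Prdx6, −0.40 (−0.46 to −0.35) for Txn2, −0.33 (−0.40 to −0.26) for Gpx1, −0.32 (−0.36 to −0.29) for Sod1, −0.30 (−0.34 to −0.26) for Gpx3, −0.29 (−0.32 to −0.26) for Sod2, −0.21 (−0.29 to −0.14) for Prdx3 and −0.20 (−0.24 to −0.16) for Prdx5. Sod3 was at 0.62 (0.46 to 0.78). Only Sod3 passed 1.5-fold, upwards, as did 42.7% of all genes, and 0 enzymes passed it downwards, as did 4.38% of all genes. With gene-wise scaling 9 enzymes passed it downwards, beside 14.2% of all genes, and Sod3, at 0.20, did not pass it upwards, beside 21.2%. The median of the enzymes was −0.31, beside 0.47 over all genes.

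**Figure D4:**
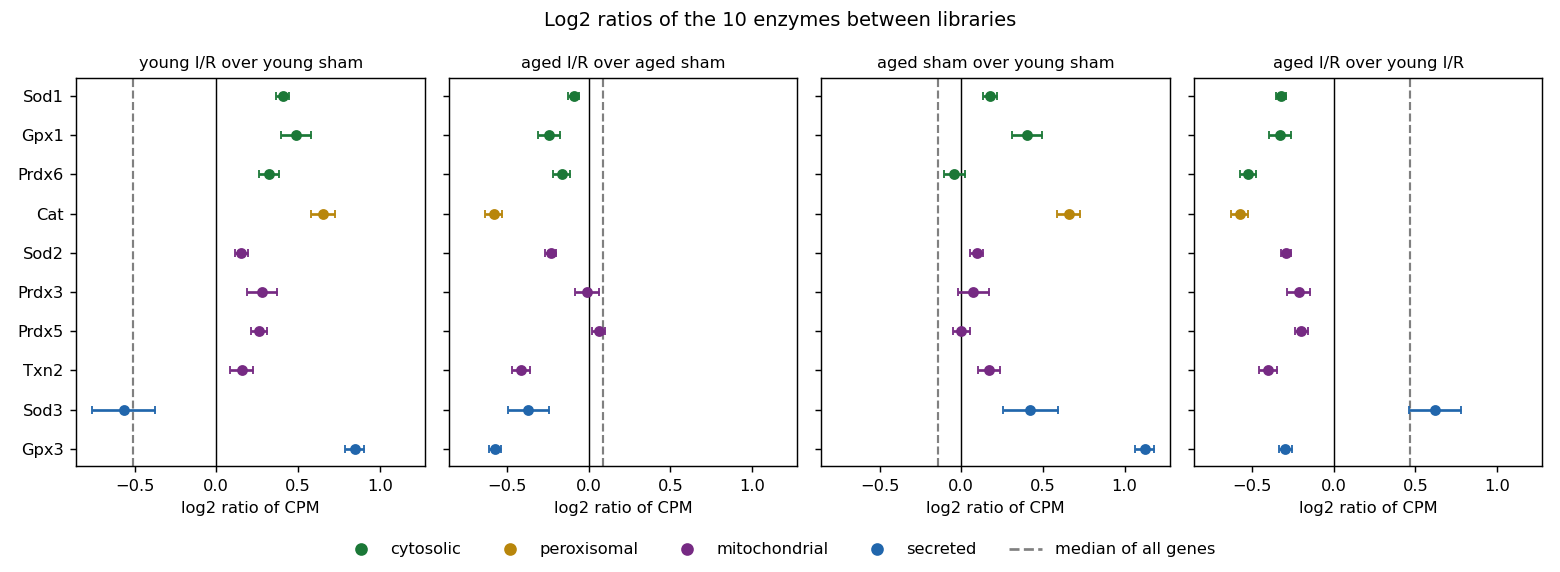
Log2 ratio of CPM of each enzyme (rows) in the 4 comparisons (panels), coloured by compartment, with 95% counting intervals and the median of all genes as a dashed line. Sod3 stands near that median in young I/R over young sham (−0.57 beside −0.51) and in aged over young I/R (0.62 beside 0.47), where the other enzymes lie on the far side of 0. Among genes at 10 CPM or more in every library the median was −0.28 and 0.28, further from Sod3.

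RNA of the protein synthesis machinery and of the mitochondrial genome had the signs of Cat and Gpx3 in the 4 comparisons by total UMIs. Sod1, Gpx1, Sod2 and Txn2 shared these signs, as did Prdx3, in part within counting error. Prdx5, Prdx6 and Sod3 did not. The 76 ribosomal protein genes summed to 21283, 28896, 31269 and 26074 CPM in the 4 libraries, and their log2 ratios were 0.44, −0.26, 0.56 and −0.15 in the 4 comparisons in the order given above. The 13 mitochondrial-encoded genes took 10.0%, 14.1%, 15.6% and 9.98% of the UMIs. Against ribosomal protein RNA, Gpx3 kept ratios of 0.40, −0.31, 0.57 and −0.15 and Cat 0.21, −0.32, 0.10 and −0.43; all 8 had the sign they had by total UMIs. What these RNAs contribute to the enzyme values was not tested.

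**Figure D5:**
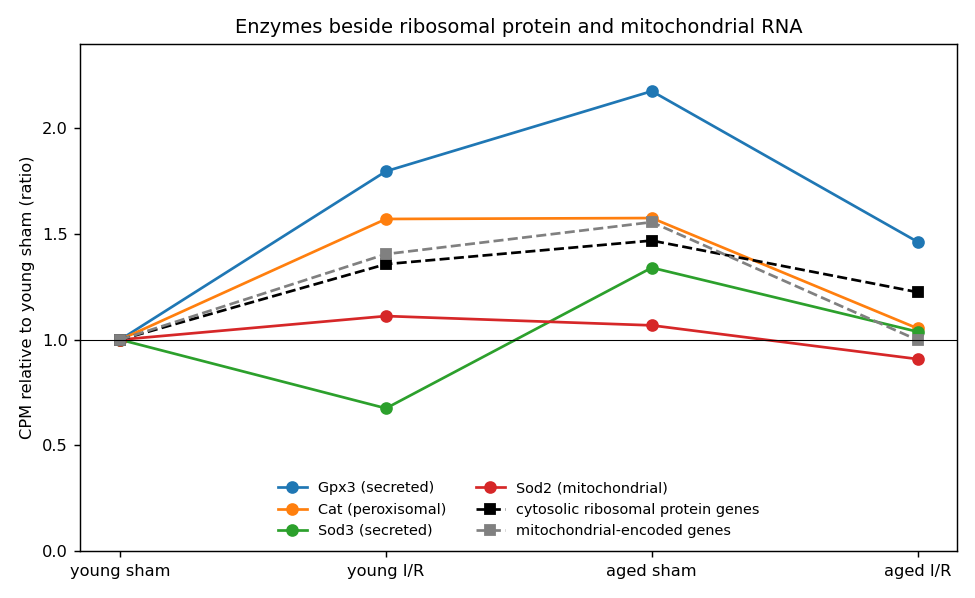
CPM of Gpx3, Cat, Sod3 and Sod2 and of summed ribosomal protein and mitochondrial-encoded genes in each library, relative to young sham (1 on the y axis). Lines join values of the same gene or sum and imply no order of the libraries. Gpx3 in aged sham stands at 2.18, above the ribosomal protein sum, and Sod3 in young I/R at 0.675 is the lowest point.

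Genes whose pattern over the 4 libraries came closest to these were sought among 10531 genes with at least 100 UMIs in each library, by the root mean square difference of centred log2 CPM. For Gpx3 they were Rps27a (0.084), Hcls1 (0.091) and Slc30a4 (0.11). For Cat they were Rpl38 (0.035), Rab11a (0.037) and Saraf (0.041), and for Sod3 Rnase4 (0.021), Fads1 (0.036) and Bhlhe40 (0.040). With 4 points a close match is a description of these libraries only.

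Other genes of the antioxidant system were described from 29 genes in 8 lists: other peroxiredoxins, other glutathione peroxidases, the thioredoxin and glutaredoxin system, glutathione supply, methionine sulfoxide reductases, sestrins, the Sod1 copper chaperone Ccs and selenoprotein P. In young I/R over sham 7 of 29 were higher by 1.5-fold or more and 2 lower, with a median of 0.10, beside 6.36% and 46.1% of all genes. In aged I/R over sham 4 were higher and 2 lower, with a median of −0.07, beside 16.7% and 9.71% of all genes. Upwards these were 4 of 29 genes, beside 0 of the 10 enzymes, and the share of the list was near that of all genes.

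The genes furthest apart in young ventricle were Slc7a11, the cystine carrier that feeds glutathione synthesis, and Srxn1, which repairs oxidised peroxiredoxins. Slc7a11 had 2 UMIs under sham and 73 after I/R in young ventricle, at a log2 ratio of 4.57 (2.67 to 7.64), and 7 and 65 UMIs in aged ventricle, at 2.52 (1.40 to 3.89). Srxn1 measured 12.2, 32.2, 10.9 and 17.9 CPM in the 4 libraries, with ratios of I/R over sham of 1.40 (1.22 to 1.58) in young and 0.71 (0.55 to 0.87) in aged ventricle. Both were higher after I/R at either age, unlike Cat and Gpx3. By total UMIs other genes of the lists had opposite signs at the 2 ages, as Cat and Gpx3 did. Among them Gpx4 was at 0.34 (0.31 to 0.36) in young and −0.65 (−0.67 to −0.63) in aged ventricle. Prdx1 was at 0.30 and −0.57, and Prdx2 at 0.28 and −0.58. With gene-wise scaling Gpx4, Prdx1 and Prdx2 kept opposite signs. Ribosomal protein RNA was at 0.44 in young and −0.26 in aged ventricle. By ribosomal protein scaling Gpx4, Prdx1 and Prdx2 were thus below sham at both ages, whereas Cat and Gpx3 kept opposite signs.

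Gclm, the modifier subunit of the enzyme that limits glutathione synthesis, measured 23.9, 53.3, 19.9 and 52.4 CPM, with ratios of I/R over sham of 1.16 (1.03 to 1.29) in young and 1.39 (1.28 to 1.504) in aged ventricle. Txnrd1, the cytosolic thioredoxin reductase, was at 0.90 (0.80 to 0.997) and 1.03 (0.95 to 1.12). Msrb1, a methionine sulfoxide reductase, was higher after I/R by 1.201 (1.13 to 1.27) in young ventricle and by 0.13 (0.07 to 0.18) in aged ventricle. Txnip, which binds and inhibits thioredoxin, was at −0.08 (−0.12 to −0.04) and −0.75 (−0.79 to −0.71). With gene-wise scaling Txnip was at 0.40 in young and −0.83 in aged ventricle, so that its direction in young ventricle depends on the scaling.

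Between sham libraries 0 of the 28 of these genes with enough UMIs passed 1.5-fold in either direction, with a median of 0.08, beside 8.99% higher and 19.8% lower over all genes. In aged over young I/R 1 was higher and 4 lower, with a median of −0.27, beside 42.7% and 4.38% of all genes. The 4 lower ones were Txnip at −1.07 (−1.11 to −1.03), Slc7a11 at −0.92 (−1.42 to −0.42), Srxn1 at −0.85 (−0.96 to −0.73) and Msrb1 at −0.81 (−0.86 to −0.77). Neutrophil markers, 9 genes, summed to 14.8, 111, 25.2 and 107 CPM in the 4 libraries, and 1 of them, Ly6g, was at 0 in young sham. Their part in the values of any gene above was not tested.

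The enzymes could not be assigned to cell types. Barcodes with at least 200 detected genes were gated on 10 markers of cardiomyocytes, endothelial cells, fibroblasts, macrophages or mural cells, and each gate was checked by whether at least 3 of 10 other markers of the same cells were at 1.5-fold or more in every library. No doublet caller was run, so doublets were left in. Only the macrophage gate passed, with 322, 333, 1424 and 1915 barcodes in the 4 libraries, and the cardiomyocyte gate had 0 of 10 in every library. The check markers of the macrophage gate summed to 3.13, 1.27, 1.32 and 1.34-fold in the 4 libraries. Of its barcodes 259, 303, 1160 and 1377 held only the minimum of 2 gate UMIs. With a gate so weak, a lack of enrichment says little about macrophages. In macrophage-gated barcodes no enzyme was at 1.5-fold or more over all barcodes in 4 of 4 libraries. Gpx1 ranged from 0.979 to 2.15-fold there, and Gpx3, from 5 to 260 UMIs, from 0.309 to 1.17-fold.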

How the data were processed

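Left ventricle from 4 conditions was profiled with the 10x Genomics Chromium 3′ kit, 1 library each. According to the submitters' processing notes and the paper, the authors used Cell Ranger 6.0.2 and the mm10 genome. The deposited values are whole UMI counts per gene and barcode, without scaling. The authors' cell names and differential expression were not used.

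Counts were summed over all barcodes and given as CPM, with exact Poisson, binomial (Clopper-Pearson) and conditional binomial 95% intervals that cover counting error only; the interval of a difference of ratios used the summed variances of the 4 counts. Depth was 25836175 to 66767829 UMIs per library. Conditions came from the sample titles. No test was made, since each condition had 1 library.

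The enzymes, lists and comparisons were chosen with earlier results of these data known. All 10 enzymes were named in every comparison. Other antioxidant genes past 1.5-fold were named up to 4 per comparison, and the 3 most alike genes for the 3 enzymes with the widest range. Gpx4, Prdx1 and Prdx2 were named in addition after seeing the data. Alternatives were gene-wise scaling, totals without mitochondrial genes, Gm42418 and Malat1, 3 subsets of barcodes, smaller sets of enzymes, another filter and stricter gates; scaling by ribosomal proteins, UMIs per kb and a background of genes at 10 CPM or more were added after seeing the data. Positions of genes and transcript lengths came from GENCODE M21 on GRCm38, the build to which mm10 refers, and promoters from RefSeq. The calculation of ratios and intervals was tested on simulated data. Python 3.11.15, numpy 2.4.6, scipy 1.17.1, pandas 2.3.3 and matplotlib 3.10.9 were used.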

Additional observations from a re-analysis of the deposited data

Results flagged for a closer look

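The response to I/R pointed in opposite directions at the 2 ages for 7 of the 10 enzymes by total UMIs, counting those whose interval excluded 0 at both ages: the young I/R library was above young sham and the aged I/R library below aged sham. Prdx3 (0.28 and −0.01) was left out because its aged ratio lay within counting error. With 1 library per condition the difference was not tested. Aged minus young, it measured −1.42 on the log2 scale for Gpx3, −1.23 for Cat, −0.73 for Gpx1, −0.57 for Txn2, −0.50 for Sod1, −0.48 for Prdx6 and −0.39 for Sod2. By ribosomal protein scaling only Cat and Gpx3 kept these directions. Gpx1 was then within counting error of 0 at both ages (0.047 and 0.018), and Txn2 was below 0 at both (−0.29 and −0.15). Prdx6 was below 0 in young and above 0 in aged ventricle. Sod1 and Sod2 had these signs as well. However, Sod1 in young (−0.076 to 0.007) and Sod2 in aged ventricle (−0.004 to 0.061) were within counting error. Ribosomal protein RNA (0.44 in young, −0.26 in aged ventricle) and mitochondrial-encoded RNA (0.49 and −0.64) pointed in opposite directions in the same libraries, and their part in these values was not tested. Of 76 ribosomal protein genes 76 were higher after I/R in young and 20 in aged ventricle. Of 13 mitochondrial-encoded genes 11 and 3 were. The median over all genes was −0.51 and 0.09. The share of all genes with the pattern of the 7 enzymes is not given, so the count cannot be read as a trait particular to them.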

How the results depend on the processing

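No paired analysis was possible because each condition had 1 library and the labels give no replicate numbers. For the same reason no library was left out. Leaving out barcodes found in another library moved none of the 50 enzyme values beyond counting error. All 10 signs of aged over young I/R held in every alternative, as did those of Cat and Gpx3 in all comparisons.

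Scaling by ribosomal protein UMIs turned many other directions, though none in aged over young I/R. It gave for young I/R over sham −0.035 for Sod1, −0.12 for Prdx6, −0.29 for Sod2, −0.16 for Prdx3, −0.18 for Prdx5, −0.29 for Txn2 and a median of −0.14. For aged I/R over sham it gave 0.17 for Sod1, 0.018 for Gpx1, 0.10 for Prdx6, 0.029 for Sod2 and a median of 0.023. For aged over young sham it gave −0.38 for Sod1, −0.15 for Gpx1, −0.46 for Sod2, −0.39 for Txn2, −0.13 for Sod3 and a median of −0.38, and for aged over young I/R a median of −0.16. Within counting error among these were Sod1 in young I/R over sham and Gpx1 and Sod2 in aged I/R over sham. So was Sod3 in aged over young sham. The response difference became 0.20 for Sod1, 0.22 for Prdx6, 0.32 for Sod2, 0.41 for Prdx3, 0.50 for Prdx5, 0.14 for Txn2, 0.90 for Sod3 and 0.21 in the median, and −0.36 for Sod3 with gene-wise scaling. Prdx5 in aged I/R over sham turned to −0.021 with gene-wise scaling and −0.030 with totals without mitochondrial genes, Gm42418 and Malat1. The cause was not tested.

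Gene-wise scaling moved the medians to 0.78, −0.32, 0.31 and −0.73 in the 4 comparisons (young I/R over sham, aged I/R over sham, aged over young sham, aged over young I/R) and to −1.05 for the response difference, and totals without those genes to 0.45, −0.33, 0.25, −0.47 and −0.73. Gene-wise, 9 enzymes were higher by 1.5-fold in young I/R over sham, 2 lower in aged I/R over sham, and 9 lower and 0 higher in aged over young I/R. Of the other 29 antioxidant genes, 14 were then higher and 0 lower, 4 higher and 5 lower, 3 higher and 0 lower, and 0 higher and 16 lower in the 4 comparisons, beside 18.8% and 24.6%, 13.7% and 12.4%, 13% and 13.7%, and 21.2% and 14.2% of all genes. With barcodes of at least 200 genes the medians were 0.41 for young I/R over sham and 0.28 for aged over young sham, and with those of 300 to 1000 UMIs 0.40 and 0.27. The share of all genes past 1.5-fold without the filter was 8.84% higher and 49% lower in young I/R over sham, and among genes at 10 CPM or more 4.71% and 30.9%.

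Shares are listed with sham before I/R and young before aged. Without Prdx5, Sod1 and Gpx1 the cytosolic share was 15.5%, 15.1%, 11.7% and 13.4%, the mitochondrial 56.9%, 49.9%, 47.8% and 51.6%, and the secreted 16.9%, 21.8%, 27.3% and 23.7%. Without the most abundant gene of each compartment they were 28.3%, 29.4%, 26.9% and 27.1%, then 55.4%, 52.1%, 51.0% and 55.4%, then 2.64%, 1.43%, 3.12% and 2.79%. Per kb they were 55.6%, 55.9%, 52.3% and 54.9%, then 32.4%, 28.7%, 28.1% and 30.0%, then 8.49%, 11.2%, 15.0% and 11.6%. With barcodes of at least 200 genes the secreted share in young I/R was 13.6%. With at least 3 gate UMIs the macrophage gate held 63, 30, 264 and 538 barcodes, and again no enzyme was at 1.5-fold in 4 of 4 libraries. The check markers of this stricter gate summed to 5.06, 2.54, 1.68 and 1.65-fold.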
